A study of Mus musculus with 6 samples.

Results

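The S100 calcium-binding proteins followed here are 10 genes, S100a1, S100a3, S100a4, S100a6, S100a10, S100a11, S100a13, S100a14, S100a16 and S100b. They were chosen by name, as rows of RNA sequencing count tables that list 24214 features, and all 10 were found. The tables come from the 393P cell line, epithelial murine lung adenocarcinoma (LUAD) cells that the labels assign to KP lung cancer cells of strain C57BL/6, with 3 samples transfected with a ZEB1 expression vector (393P_ZEB1) and 3 with the empty vector (393P_vector). Both groups were kept in the same medium with serum, and total RNA was sequenced on the SOLiD platform. ZEB1 is a transcription factor that activates epithelial-to-mesenchymal transition (EMT). The labels name neither the promoter of the vectors nor whether the 3 samples of a group were separate transfections, so p-values measure only the spread between these samples, which may be technical.

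S100 proteins are small proteins found in vertebrates that carry a pair of EF-hands, the helix-loop-helix motif that binds calcium. Most form dimers, open a binding surface when calcium rises, and act by docking onto target proteins such as annexins, myosin heavy chain and cytoskeletal scaffolds. Some are also secreted and bind receptors such as RAGE and TLR4. Most S100 genes lie together in the epidermal differentiation complex, a gene-dense stretch that also holds genes of the skin barrier.

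Total counts per sample ranged from 54442450 to 79158012, and expression is given as CPM, counts scaled to a common depth by the TMM-normalized library size. A detection floor of 3 reads in a library equals 0.0361 to 0.0561 CPM. Zeb1 rose from 21.5 ± 0.435 to 51.7 ± 3.01 CPM (SD, n = 3), a log2 fold change of 1.26 ± 0.10 (SE, edgeR adjusted p = 6.06e-05), and any reads of the transgene that align to the mouse gene are part of that count. All 5 epithelial markers examined (Cdh1, Epcam, Esrp1, Krt8 and Krt18) were lower and all 3 mesenchymal markers (Cdh2, Vim and Fn1) were higher in 393P_ZEB1 cells by edgeR. Vim did not pass without 393P_vector replicate 1 or 2 or 393P_ZEB1 replicate 2 or 3 (edgeR adjusted p between 0.0517 and 0.1), nor with the replicate number as a block (edgeR adjusted p = 0.0669). Markers of other cell types that are rich in particular S100 proteins were close to absent. The summed level of the 4 macrophage markers was between 1.67 and 4.81 CPM, that of the 3 neutrophil markers between 0.0935 and 0.337 CPM, that of the 4 fibroblast markers between 0.414 and 1.66 CPM, that of the 3 endothelial markers between 0.486 and 2.37 CPM and that of the 3 glial markers between 0.342 and 0.724 CPM. The 3 neutrophil markers were S100a8, S100a9 and Mpo, so S100a8 and S100a9 are also S100 genes described below and no separate check. S100a9, Mpo and Lum had no read in at least 1 library. Of these lists, 4 macrophage, 1 neutrophil, 1 fibroblast, 2 endothelial and 1 glial markers had enough counts to be tested. From each of the macrophage, neutrophil, fibroblast and endothelial lists 1 marker passed the test as lower in 393P_ZEB1 cells and none as higher. Among all tested genes 37.6% were called, so these counts are no result about the lists. The neutrophil marker that passed was S100a8. The part of these lists in the S100 results was not tested.

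393P_vector replicate 3 stood apart from the other libraries, and this touches the S100 genes directly. The CPM of 6.89% and 7.75% of tested genes was at least 2-fold apart between this library and replicates 1 and 2, respectively. Replicates 1 and 2 were that far apart for 0.9% of genes, and pairs of 393P_ZEB1 replicates for 0.914% to 1.29%. Its excess was larger for short transcripts. Of the 1458 tested genes with an exon length of up to 1100 bases, 39.9% were at least 1.5-fold above the mean of replicates 1 and 2 in that library, against 9.9% of the 12434 longer genes. All 9 tested S100 genes belong to the short class, with exon lengths from 496 to 1091 bases, and the cut lies just above the longest of them. Of these 9, S100a1, S100a6 and S100a11 were at least 1.5-fold above in replicate 3 (2.3-fold, 1.94-fold and 1.97-fold). That is read against 39.9% of the short class and 13.1% of all tested genes. The part of transcript length in the S100 results was not tested, and the fold change of each tested S100 gene is given with and without that library.

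Differences between 393P_ZEB1 and 393P_vector were tested with the quasi-likelihood method of edgeR, and p-values were adjusted by Benjamini-Hochberg over all 13892 genes that passed its filter on low counts, with a threshold of 0.05. Of the 10 members, 9 passed the filter and S100b did not. S100a3, S100a4 and S100a13 were higher and S100a11, S100a14 and S100a16 were lower in 393P_ZEB1 cells. S100a1, S100a6 and S100a10 did not pass the threshold. The 6 of 9 members called are read against 37.6% of all tested genes called in either direction, 18.3% higher and 19.3% lower. Among the short genes, the class of all 9, 23.1% were called and the median log2 fold change was -0.18, against 39.3% and -0.01 among the longer genes. Without 393P_vector replicate 3, all 9 passed, 5 higher and 4 lower, against 53% of all genes tested in that fit, 26.2% higher and 26.8% lower. Tested against a change of 1.5-fold, S100a3, S100a4, S100a14 and S100a16 passed, 2 higher and 2 lower, where 15.8% of all genes did, 7.78% higher and 8.05% lower. The groups did not overlap in CPM for 6 of the 9 members, against 52.8% of all tested genes. The median log2 fold change of the 9 was 0.34 with all samples and 0.73 without that replicate, where all tested genes had medians of -0.02 and -0.01. In bulk RNA, fewer cells that express a gene and less RNA per cell cannot be told apart, which holds for every difference given here.

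**Figure D1:**
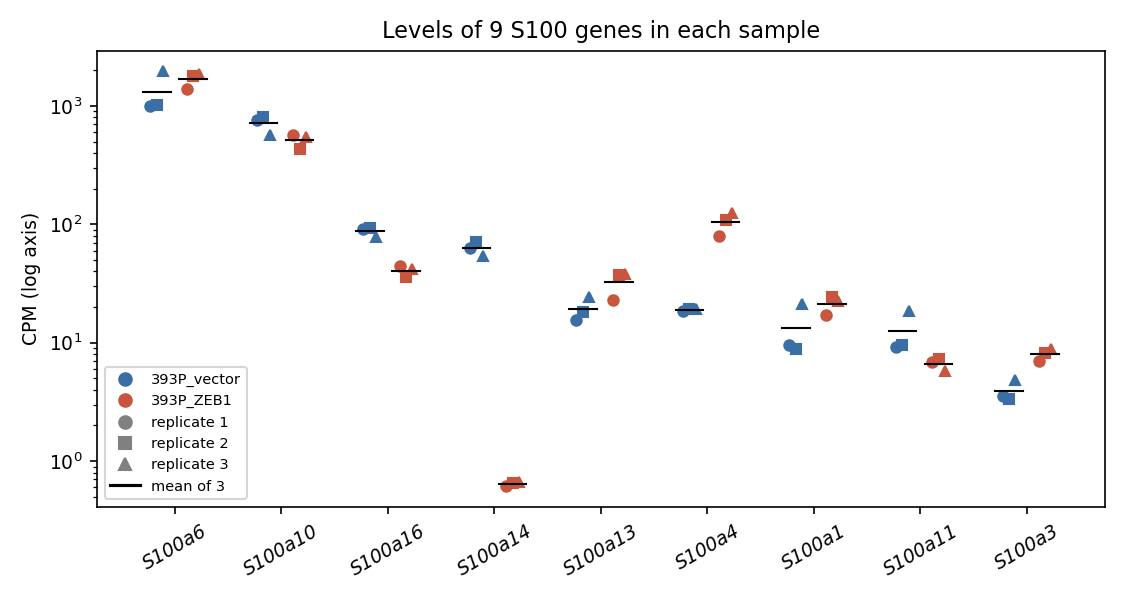
CPM on a log axis of the 9 S100 genes that passed the filter, 1 point per sample, with the mean of 3 samples as a bar. S100a14 falls from between 54.3 and 70.2 CPM to between 0.617 and 0.672 CPM, S100a4 rises from about 19 to between 79.6 and 124 CPM, and 393P_vector replicate 3 (blue triangles) stands above replicates 1 and 2 for S100a1, S100a6 and S100a11.

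S100a14 had the largest change of the family. Its protein is found mainly in epithelia, has a variant EF-hand with little affinity for calcium, and can signal through RAGE. S100a14 lies on the plus strand of chromosome 3 from 90526849 to 90528835 in GRCm38. It had 63.0, 70.2 and 54.3 CPM in 393P_vector replicates 1 to 3 and 0.617, 0.648 and 0.672 CPM in 393P_ZEB1 replicates 1 to 3. The 393P_ZEB1 libraries were thus far below every 393P_vector library and close to each other, while their 33, 36 and 41 reads stayed well above the detection floor of 3. The mean fell 96.8-fold, from 62.5 ± 7.98 to 0.645 ± 0.0275 CPM (SD, n = 3), with a log2 fold change of -6.59 ± 0.17 (SE, edgeR adjusted p = 3.71e-07). Without 393P_vector replicate 3 it was -6.68 ± 0.12 (SE, edgeR adjusted p = 1.3e-10). Only 0.432% of all tested genes, 60 of 13892, had a log2 fold change as low as that of S100a14. In size it stood beside the epithelial adhesion gene Epcam, which went from 122 ± 51.8 to 1.31 ± 0.611 CPM (SD, n = 3), a log2 fold change of -6.53 ± 0.48 (SE, edgeR adjusted p = 3.25e-05). The other epithelial markers ranged widely, with log2 fold changes of -7.75 for Esrp1, -4.09 for Cdh1, -0.77 for Krt18 and -0.61 for Krt8.

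S100a16, the S100 gene next to S100a14, fell too, but by a much smaller factor. Its protein is broadly expressed and binds calcium through its C-terminal EF-hand. Levels of S100a16, from 90541223 to 90543151 on chromosome 3, were 91.6, 92.7 and 78.8 CPM in 393P_vector cells and 44.3, 35.8 and 41.7 CPM in 393P_ZEB1 cells. The groups did not overlap, and the lowest 393P_vector level was well above the highest 393P_ZEB1 level. The change was from 87.7 ± 7.72 to 40.6 ± 4.37 CPM (SD, n = 3), a log2 fold change of -1.11 ± 0.13 (SE, edgeR adjusted p = 0.00035), and leaving out each library in turn gave -1.18, without 393P_vector replicate 3, to -1.02. Within a library the length-scaled level of S100a16 (CPM per kilobase of exon) was 1.45 ± 0.0792 times that of S100a14 in 393P_vector cells and 65 ± 8.63 times in 393P_ZEB1 cells (SD, n = 3, exact permutation p = 0.1, two-sided, the smallest that 3 samples against 3 allow).

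S100a4, also called metastasin or fibroblast-specific protein, was the member that rose most. The protein binds the tail of non-muscle myosin IIA, takes apart its filaments and is a common marker of mesenchymal cells. S100a4 (chromosome 3, plus strand, 90603770 to 90606045) was steady in 393P_vector cells at 18.5, 19.4 and 19.2 CPM and reached 79.6, 109 and 124 CPM in 393P_ZEB1 cells. Every 393P_ZEB1 library was above every 393P_vector library, including replicate 3. The mean went from 19.0 ± 0.445 to 104 ± 22.6 CPM (SD, n = 3), 5.48-fold, with a log2 fold change of 2.45 ± 0.17 (SE, edgeR adjusted p = 2.78e-05). A log2 fold change at least that high was found for 2.39% of all tested genes. It was 2.46 without 393P_vector replicate 3 and between 2.32 and 2.62 with each library left out in turn.

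S100a3, known from the hair cuticle, lies just before S100a4 on the same strand, from 90600215 to 90602702, and is separated from it by 1067 bases. Its level was 3.52, 3.31 and 4.86 CPM in 393P_vector cells and 7.03, 8.17 and 8.84 CPM in 393P_ZEB1 cells. The groups were again apart, with a log2 fold change of 1.04 ± 0.20 (SE, edgeR adjusted p = 0.00468), and of 1.23 without 393P_vector replicate 3. GENCODE M21 annotates a transcript, Gm42674, that shares exon sequence with both genes, 146 identical bases with S100a3 and 302 with S100a4. Reads in these bases cannot be assigned to a transcript from the counts. The length-scaled level of S100a3 was 0.143 ± 0.0302 of that of S100a4 in 393P_vector cells and 0.0547 ± 0.00625 in 393P_ZEB1 cells (SD, n = 3, exact permutation p = 0.1).

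S100a6 and S100a10 were by far the most abundant members in both groups. S100a6, calcyclin, is a cytoplasmic protein of proliferating cells that binds Cacybp and annexins. S100a6 (chromosome 3, 90612894 to 90614414) had 1004, 1009 and 1954 CPM in 393P_vector cells and 1382, 1791 and 1846 CPM in 393P_ZEB1 cells. Replicates 1 and 2 of 393P_vector were below all 393P_ZEB1 libraries and replicate 3 was above all of them. With all samples the log2 fold change was 0.34 ± 0.27 (SE, edgeR adjusted p = 0.364). Without 393P_vector replicate 3 it was 0.73 ± 0.12 (SE, edgeR adjusted p = 0.000618), so the call for the most abundant S100 gene rests on that library.

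S100a10, or p11, has lost the ability to bind calcium and forms a heterotetramer with annexin A2 at the plasma membrane, where it also binds plasminogen and the scaffold Ahnak. S100a10 (chromosome 3, 93555117 to 93564645) had 764, 799 and 572 CPM in 393P_vector cells and 563, 434 and 551 CPM in 393P_ZEB1 cells. The groups did not overlap, but 393P_vector replicate 3 was only just above 393P_ZEB1 replicate 1. The log2 fold change was -0.46 ± 0.17 (SE, edgeR adjusted p = 0.0608) with all samples and -0.60 ± 0.11 (SE, edgeR adjusted p = 0.00115) without 393P_vector replicate 3. Anxa2, which encodes its partner, was at 1488 ± 164 CPM in 393P_vector and 1535 ± 189 CPM in 393P_ZEB1 cells (SD, n = 3), with a log2 fold change of 0.05 ± 0.14 (SE, edgeR adjusted p = 0.823). The ratio of the length-scaled levels of S100a10 and Anxa2 was 1.18, 1.18 and 0.72 in the 393P_vector libraries and 0.892, 0.537 and 0.733 in the 393P_ZEB1 libraries, and the groups overlapped (exact permutation p = 0.3).

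S100a11, a partner of annexins A1 and A6, was lower in 393P_ZEB1 cells, with reservations about the counts. S100a11 (chromosome 3, 93520496 to 93526288) had 9.24, 9.5 and 18.6 CPM in 393P_vector cells and 6.86, 7.27 and 5.72 CPM in 393P_ZEB1 cells. The groups did not overlap, and replicate 3 of 393P_vector was well above the other samples. The log2 fold change of -0.91 ± 0.29 (SE, edgeR adjusted p = 0.0395) moved to -0.50 ± 0.14 (SE, edgeR adjusted p = 0.011) without that replicate, and the gene did not pass without any of 393P_ZEB1 replicates 1, 2 and 3 (edgeR adjusted p = 0.113, 0.0914 and 0.137). In GENCODE M21, S100a11 was the only member with processed pseudogenes that match it over at least 50 bases at 90% identity or more. There were 5, of which Gm12854 and Gm7665 matched 297 bases at 99% and 98.7%, and S100a11 reads may have been split among them or left out. Its level is therefore uncertain.

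S100a1 and S100a13 share a start region. S100a13 takes part in the export of FGF1 and IL-1 alpha, proteins that leave cells without a signal peptide, and S100a1 is best known from heart muscle, where it acts on the calcium pump and the calcium release channel. S100a1 runs on the minus strand from 90511034 to 90514330 and S100a13 on the plus strand from 90514435 to 90524581. Only 104 bases lie between them, shown here in GRCm38 (RefSeq, plus strand, chr3:90514331-90514434, 5′ to 3′) because both genes start at its ends.
S100a1 to S100a13: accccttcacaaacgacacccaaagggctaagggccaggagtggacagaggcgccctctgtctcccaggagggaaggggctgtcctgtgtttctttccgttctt

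S100a13 had 15.4, 18.3 and 24.4 CPM in 393P_vector cells and 22.9, 37.1 and 38.3 CPM in 393P_ZEB1 cells, and the groups overlapped, since 393P_vector replicate 3 was above 393P_ZEB1 replicate 1. Its log2 fold change was 0.76 ± 0.24 (SE, edgeR adjusted p = 0.0421), and 0.96 ± 0.23 (SE, edgeR adjusted p = 0.00974) without 393P_vector replicate 3. It did not pass when either of 393P_vector replicates 1 and 2 or either of 393P_ZEB1 replicates 2 and 3 was left out (edgeR adjusted p between 0.0942 and 0.139). S100a1 had 9.5, 8.92 and 21.3 CPM in 393P_vector cells and 17, 24.5 and 22.5 CPM in 393P_ZEB1 cells. Again only 393P_vector replicate 3 overlapped with the other group. The log2 fold change of S100a1 was 0.69 ± 0.34 (SE, edgeR adjusted p = 0.153) with all samples and 1.21 ± 0.16 (SE, edgeR adjusted p = 0.000108) without it. The ratio of S100a1 to S100a13 in length-scaled level was 0.765 ± 0.226 in 393P_vector and 0.771 ± 0.0899 in 393P_ZEB1 cells (SD, n = 3, exact permutation p = 0.9).

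S100b, an S100 protein of astrocytes and Schwann cells, is encoded on chromosome 10 from 76253836 to 76261319 and is the only member outside chromosome 3. It had 3, 0 and 14 reads in 393P_vector libraries and 5, 11 and 8 reads in 393P_ZEB1 libraries. In CPM these counts are at most 0.198, and no difference was detectable at this depth.

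**Figure D2:**
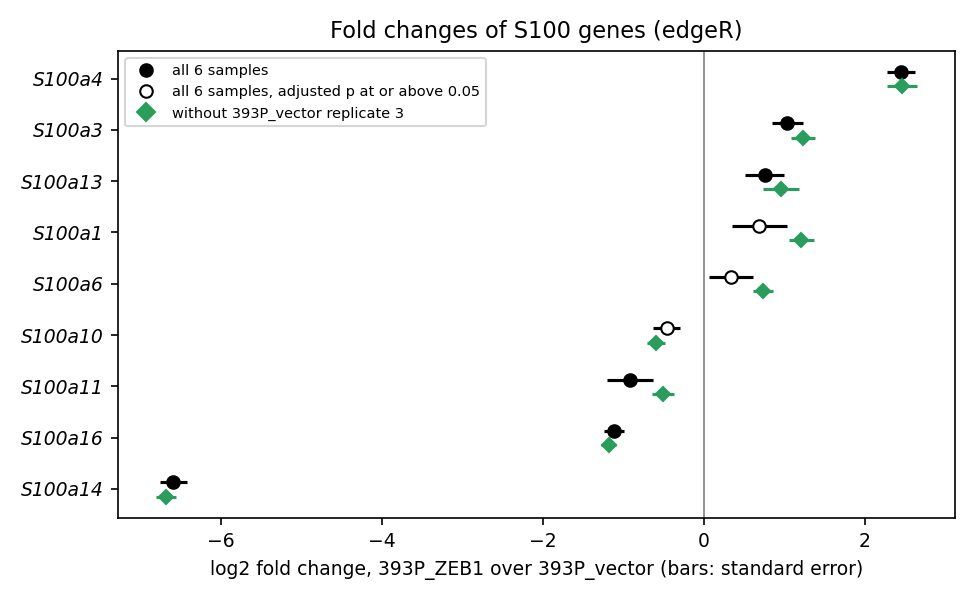
Log2 fold changes of the 9 tested S100 genes from edgeR with standard errors, for all 6 samples (circles, open where the adjusted p was 0.05 or more) and without 393P_vector replicate 3 (diamonds). The values for S100a14, S100a16 and S100a4 differ least between the fits, while S100a1, S100a6 and S100a11 move most.

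Per length, the order of the S100 transcripts changed between the groups. Length-scaled CPM in 393P_vector cells were 1847 ± 764 for S100a6, 1100 ± 189 for S100a10, 82.9 ± 7.3 for S100a16, 57.3 ± 7.32 for S100a14 and 38.4 ± 0.898 for S100a4 (SD, n = 3). None of these neighbours overlapped, whereas S100a13, S100a11 and S100a1, next in order at 27.3 ± 6.47, 24.8 ± 10.6 and 21.6 ± 11.4, did. S100a3 followed at 5.5 ± 1.19. In 393P_ZEB1 cells S100a6 and S100a10 still led, with length-scaled CPM of 2336 ± 354 and 797 ± 111, and S100a4 followed with 210 ± 45.7 (SD, n = 3). S100a13, S100a16 and S100a1 came next at 46.1 ± 12, 38.4 ± 4.13 and 34.9 ± 6.36, each overlapping its neighbour. S100a11 and S100a3 overlapped at 13.2 ± 1.61 and 11.3 ± 1.3, and S100a14 had dropped to the place before S100b, at 0.592 ± 0.0252. The length-scaled level of S100a4 was 0.677 ± 0.0894 times that of S100a14 in 393P_vector cells and 353 ± 63 times in 393P_ZEB1 cells (SD, n = 3, exact permutation p = 0.1).

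S100a6 and S100a10 together made up between 89.4% and 92.9% of the summed length-scaled CPM of the 10 members in every library. S100a6 alone had 49.6% and 48.6% in 393P_vector replicates 1 and 2, and 62.5%, 70.6% and 67.2% in 393P_ZEB1 replicates 1 to 3. 393P_vector replicate 3, at 70.2%, was among the 393P_ZEB1 libraries in this respect. S100a4 took 1.32%, 1.35% and 0.995% in 393P_vector and 5.2%, 6.19% and 6.53% in 393P_ZEB1 cells, so that its share did not overlap between the groups in any library.

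**Figure D3:**
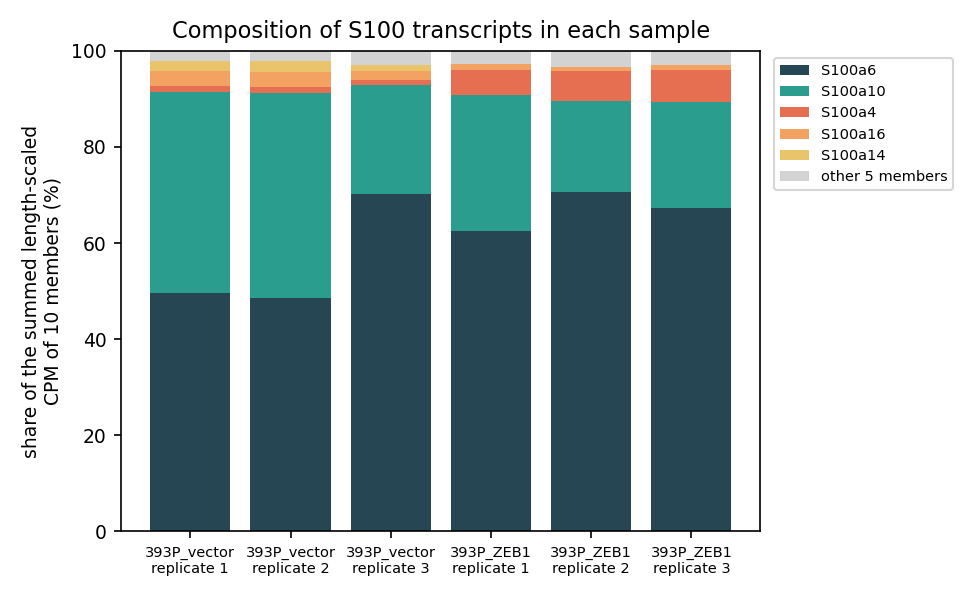
Share of each S100 gene in the summed length-scaled CPM of the 10 members, in percent, 1 bar per sample. S100a6 and S100a10 fill between 89.4% and 92.9% of each bar, the S100a4 share is at least 5.2% in the 393P_ZEB1 samples and at most 1.35% in the 393P_vector samples, and 393P_vector replicate 3 differs from replicates 1 and 2 in its S100a6 share.

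S100 genes of opposite direction lay side by side. From S100a1 to S100a9 the S100 genes cover 184.7 kb of chromosome 3, and S100a11 and S100a10 lie 2825 kb further on. In order of position, S100a13 was higher, S100a14 and S100a16 were lower, S100a3, S100a4 and S100a7a were higher and S100a8 was lower by edgeR. The calls of S100a13, whose groups overlapped, and of S100a8 were not kept with every library left out in turn. S100a8 also passed the filter only through 393P_vector. Between S100a13 and S100a14, with log2 fold changes of 0.76 and -6.59, lie 2267 bases. The 678 tested genes of chromosome 3 had a median log2 fold change of 0.06, with 158 called higher and 88 lower, where all tested genes had 2539 higher and 2679 lower. The 3 tested genes just before S100a1, Chtop, Snapin and Ilf2, which were picked for their position after the values were seen, had log2 fold changes of -0.02, 0.23 and -0.08 and did not pass (edgeR adjusted p = 0.934, 0.628 and 0.654). Without 393P_vector replicate 3 Snapin passed at 0.79 (edgeR adjusted p = 0.000233).

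**Figure D4:**
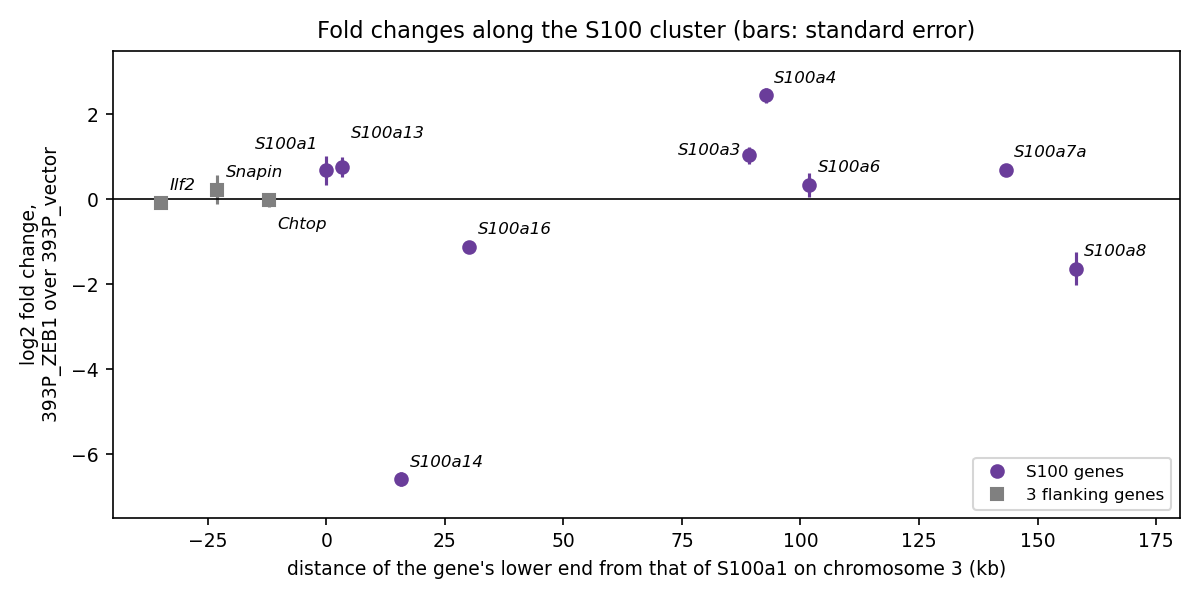
Log2 fold changes with standard errors of the tested S100 genes and of 3 genes before them, against the distance in kb from the lower end of S100a1 on chromosome 3. S100a14 (-6.59) and S100a16 (-1.11) lie below 0 between S100a13 (0.76) and S100a3 (1.04), and the 3 flanking genes lie between -0.08 and 0.23 with all samples.

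The files list 57 features that are no S100 gene between S100a1 and S100a10, mainly small proline-rich, late cornified envelope and S100-fused genes of the skin barrier. Only 5 passed the filter, and 4 of these 5 passed the test, where 37.6% of all tested genes did. The remaining gene was Tchh, with a log2 fold change of -0.43 (edgeR adjusted p = 0.559). Genes low in 1 group could pass the filter through the other alone, as Lce1h did with 0, 3 and 4 reads in 393P_ZEB1 libraries. The 4 of 5 is therefore no result about these neighbours. With at least 10 counts required in every sample, 2 were tested and 1 passed, where 4420 of all 12572 tested genes did. Sprr2h and Sprr1a, which encode small proline-rich proteins of the cornified envelope, rose with log2 fold changes of 2.67 and 1.15 (edgeR adjusted p = 0.00085 and 0.0478). With each library left out in turn, Sprr1a passed only without 393P_vector replicate 3, at 1.78, and in none of the other 5 fits (edgeR adjusted p between 0.0994 and 0.136). Lce1g and Lce1h, late cornified envelope genes, fell, with log2 fold changes of -4.17 and -5.73 (edgeR adjusted p = 3.85e-05 and 0.000719). All 4 were low, with group means of at most 11.3 CPM, and belong to families of similar copies whose reads may be split.

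ZEB1 binds E-boxes of the form CACCTG, which reads CAGGTG on the other strand. RefSeq start windows of GRCm38.p6, from 250 bases before to 50 after each annotated start, were searched for these letters on both strands. They were given for 8 of the 10 members in 12 windows, S100a10 and S100a14 not among them. The motif was in 3 of the 12 windows, 1 of S100a16 and 2 of S100a3, against 20.2% of all 32851 windows. The counts do not tell which annotated start was used. Printed for the members that moved most among those with a window, with the motif in capitals, are the 250 bases before the first S100a16 start (chr3:90537004-90537253, plus strand), the 250 bases before the S100a4 start (chr3:90603520-90603769, plus strand), and the surroundings of the motif at the first S100a3 start (chr3:90584461-90584526, plus strand).
S100a16: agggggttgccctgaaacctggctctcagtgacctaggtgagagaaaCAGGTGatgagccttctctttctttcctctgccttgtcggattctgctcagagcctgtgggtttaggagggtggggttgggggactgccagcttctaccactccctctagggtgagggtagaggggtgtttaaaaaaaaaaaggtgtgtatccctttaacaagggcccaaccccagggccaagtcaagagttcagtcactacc
S100a4: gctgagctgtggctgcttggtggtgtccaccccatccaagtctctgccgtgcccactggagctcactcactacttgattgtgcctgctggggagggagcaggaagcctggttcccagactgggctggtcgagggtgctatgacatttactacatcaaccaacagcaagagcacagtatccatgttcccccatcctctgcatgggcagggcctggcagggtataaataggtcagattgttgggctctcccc
S100a3: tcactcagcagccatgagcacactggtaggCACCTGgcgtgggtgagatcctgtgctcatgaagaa

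The S100a16 motif lay 203 bases before an annotated start upstream of the one in the files, and the S100a16 window nearest to the start in the files held none. The S100a3 motifs lay 168 bases before one annotated start and 26 bases after another, both upstream of the S100a3 start in the files, whose own window held none. The S100a4 window held none, and neither did the windows of S100a1, S100a6, S100a11, S100a13 and S100b. A match describes the letters only, and binding of ZEB1 was not measured in these samples.

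Of the other S100 family genes, S100a7a was the one with an appreciable level. S100a7a (chromosome 3, 90654302 to 90658130) is the mouse gene nearest to human psoriasin, a secreted protein of inflamed epithelium. Its level was 35.3, 39.2 and 45.1 CPM in 393P_vector and 65.2, 63.4 and 65.1 CPM in 393P_ZEB1 cells. The groups did not overlap, with a log2 fold change of 0.69 ± 0.12 (SE, edgeR adjusted p = 0.003). S100a8, which with S100a9 forms the calprotectin of neutrophils, had 13, 14 and 21 reads in 393P_vector libraries and 3, 6 and 4 reads in 393P_ZEB1 libraries, a log2 fold change of -1.63 ± 0.38 (SE, edgeR adjusted p = 0.0114) at levels of at most 0.253 CPM. S100a2, S100a5, S100a9, S100g and S100z did not pass the filter, with at most 7 reads in any library. The list of other family genes also held S100-fused proteins of the skin. Of its 13 genes in the files, 3 were tested and 2 passed, against 37.6% of all tested genes. The remaining tested gene, Tchh, had a log2 fold change of -0.43 ± 0.53 (SE, edgeR adjusted p = 0.559). S100a8, with at most 6 reads in 393P_ZEB1 libraries, passed the filter only through 393P_vector, so the 2 of 3 is no result about the list. With at least 10 counts required in every sample, 1 gene of the list was tested, and it passed, where 4420 of all 12572 tested genes did. S100a8 did not pass without 393P_ZEB1 replicate 3 (edgeR adjusted p = 0.0548). Without 393P_vector replicate 3 the log2 fold changes of S100a7a and S100a8 were 0.79 and -1.59 (edgeR adjusted p = 2.89e-05 and 0.0221).

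S100 proteins work through partners, and a list of 30 binding partners and receptors was examined. Of these, 27 passed the filter, 5 were higher, 5 were lower and 17 did not pass the test, with a median log2 fold change of -0.04 against -0.02 for all tested genes. The share called, 10 of 27, is read against 37.6% of all tested genes. That share is near the background and is no result about the list.

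Among myosins, Myh9, the non-muscle myosin IIA heavy chain bound by S100a4, had 4350, 4611 and 2487 CPM in 393P_vector and 2601, 2421 and 2970 CPM in 393P_ZEB1 cells. The groups overlapped through 393P_vector replicate 3. Its log2 fold change was -0.52 ± 0.23 (SE, edgeR adjusted p = 0.117), and -0.75 ± 0.10 (SE, edgeR adjusted p = 0.000156) without that replicate. Myh14, the non-muscle myosin IIC heavy chain, fell from 13.8 ± 5.05 to 2.42 ± 0.257 CPM (SD, n = 3), a log2 fold change of -2.51 ± 0.30 (SE, edgeR adjusted p = 0.000459). Of the other partners of S100a4, the liprin Ppfibp1 and Trp53 had log2 fold changes of 0.05 and -0.18 and did not pass (edgeR adjusted p = 0.81 and 0.25).

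The cargoes that S100a13 helps to export moved in opposite directions. Fgf1 rose from 1.24 ± 0.119 to 8 ± 0.722 CPM (SD, n = 3), with a log2 fold change of 2.69 ± 0.17 (SE, edgeR adjusted p = 1.44e-05). Il1a fell from 0.999 ± 0.281 to 0.11 ± 0.0364 CPM (SD, n = 3), with a log2 fold change of -3.15 ± 0.37 (SE, edgeR adjusted p = 0.000427). Both were low genes whose groups did not overlap. Il1a had 57, 42 and 106 reads in 393P_vector libraries and 4, 6 and 9 in 393P_ZEB1 libraries. It thus passed the filter through 393P_vector alone, and its call is read with that limit. Syt1, part of the FGF1 export complex, did not pass the filter.

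Of the 5 annexin genes among the partners, Anxa6 passed the test and Anxa1, Anxa2, Anxa5 and Anxa11 did not. Differences between annexins were not tested. Anxa6, bound by S100a11 and other members, rose from 309 ± 15.7 to 600 ± 65.9 CPM (SD, n = 3), a log2 fold change of 0.96 ± 0.12 (SE, edgeR adjusted p = 0.000528). Anxa1 had a log2 fold change of -0.24 ± 0.12 (SE, edgeR adjusted p = 0.152), and Anxa5 and Anxa11 had 0.27 and -0.03 (edgeR adjusted p = 0.087 and 0.921). Dlc1, a tumour suppressor that S100a10 binds, rose from 21.4 ± 3.14 to 67.9 ± 1.52 CPM (SD, n = 3), a log2 fold change of 1.66 ± 0.13 (SE, edgeR adjusted p = 5.23e-05). Of receptors outside the cell, Ager, which encodes RAGE, was at most 0.765 CPM in any library with a log2 fold change of -0.84 ± 0.38 (SE, edgeR adjusted p = 0.119). Tlr4 was higher, with a log2 fold change of 0.78 ± 0.21 (SE, edgeR adjusted p = 0.0222), but did not pass without 393P_vector replicate 1 or 2 or 393P_ZEB1 replicate 1 or 2 (edgeR adjusted p between 0.0518 and 0.0849). Plat, tissue plasminogen activator, rose from 31.9 ± 2.16 to 57.1 ± 4.72 CPM (SD, n = 3, edgeR adjusted p = 0.000922), and Bsg, basigin, fell from 434 ± 151 to 222 ± 32.4 CPM (SD, n = 3, edgeR adjusted p = 0.0158). Sugt1 and Stk38l, which bind S100a6 and S100b in other systems, completed the partners that passed, with log2 fold changes of -0.53 and -0.54 (edgeR adjusted p = 0.00739 and 0.0165). Stk38l did not pass without 393P_vector replicate 1 or 2 or 393P_ZEB1 replicate 2 or 3 (edgeR adjusted p between 0.0559 and 0.0773), and Bsg did not without 393P_ZEB1 replicate 1 or 3 (edgeR adjusted p = 0.0759 and 0.0541).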

How the data were processed

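The 6 samples were grouped by their titles. The authors deposited, per RefSeq gene, unnormalized read counts, the RPKM (reads scaled by exon length and library depth), and the number of exons with more than 10 reads. The coordinates match GRCm38 genes of GENCODE M21. The aligner, counter and use of strand are not given in the sources used here, and no test for these counts is described in them. The deposited RPKM values were not used. Length-scaled CPM was recomputed from the counts and the files' exon length.

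Counts were fitted in R 4.3.3 with edgeR 4.0.16 (filterByExpr, minimum count 10, TMM, robust quasi-likelihood fit, condition as the only term). The common biological coefficient of variation was 0.184. Total counts ranged from 54442450 to 79158012. Exact permutation tests (SciPy 1.17.1, two-sided, on log2 values, with 0.1 CPM added for single genes) cannot go below 0.1. Alternatives used DESeq2 1.42.0 and limma 3.58.1. The fit was tested on simulated counts. Similar copies were searched with BLAST+ 2.17.0.

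Named are all members, all other S100 rows, partners and neighbours past the threshold with an absolute log2 fold change of at least 1, partners of members that passed, Zeb1 and EMT markers. Plat, Bsg, Tlr4, Ager, Sugt1, Stk38l, Syt1, Krt8, Krt18, Fn1 and the flanking genes were named outside this rule after their values were seen. Members and lists were chosen with earlier results of these data known. The tested genes after S100a10 are not reported here.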

Additional observations from a re-analysis of the deposited data

How the results depend on the processing

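Of 117 recomputed log2 fold changes of single S100 genes over 13 alternative settings, 99 kept their direction and side of the threshold, 7 passed only in the alternative, 11 no longer passed, and none changed sign. The number of S100 members past the threshold was 6 and ranged from 4 to 9 with each library left out in turn, the 9 being without 393P_vector replicate 3. Corresponding ranges were 1 to 2 for the other S100 family genes (1 without 393P_ZEB1 replicate 3), 8 to 13 for partners and 3 to 5 for cluster neighbours. For all genes the range was from 3645 of 14157 tested, without 393P_ZEB1 replicate 3, to 7476 of 14106 tested, without 393P_vector replicate 3. Testing against a 1.5-fold change left 2199 of all 13892 tested genes, against 5218, 6 partners, 1 other family gene and 4 members. Requiring at least 10 counts in every sample left 1 other family gene and 1 cluster neighbour, since fewer genes were then tested. Of all 12572 genes tested in that fit, 4420 passed. limma voom with sample weights, where 393P_vector replicate 3 had a weight of 0.111, called 8071 of all 13892 tested genes and all 9 tested members. S100a10 passed by DESeq2 (log2 fold change -0.46, adjusted p = 0.0364).

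The labels number replicates 1 to 3 in both groups. Deviations from the group mean correlated with r between -0.126 and 0.195 for equal numbers and between -0.12 and 0.157 for unequal ones. With 3 samples per group these values cannot tell whether samples of equal number were paired. With the replicate block, 5 of 9 tested members and 4436 of all 13892 tested genes passed, and S100a11 did not (edgeR log2 fold change -0.84, adjusted p = 0.073).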
